A study of Mus musculus with 26 samples.

Results

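Regions with SMC3 peak calls in C2C12 myotubes and none in myoblasts are described here. SMC3 is the cohesin subunit immunoprecipitated in the study. Peaks of the 2 myotube and 2 myoblast SMC3 lists were merged wherever they shared at least 1 bp on the autosomes or X, which gave 42567 regions. A region was taken as gained when both myotube lists and neither myoblast list called it. This held for 336 regions, 0.789% of all merged regions, against 5458 regions (12.8%) with the opposite pattern, called lost below. Another 13017 regions were called in all 4 lists and are called constant. The regions were thus chosen by presence or absence of a peak in those 4 lists, so their ranks and widths there are a description and carry no test.

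C2C12 is a mouse myoblast line, grown in 20% serum and differentiated in 2% horse serum with insulin, transferrin and selenium per the labels' protocols. The groups used, each of 2 libraries, were SMC3 ChIP-seq in myotubes transfected with siDRR, in myotubes and in myoblasts, ATAC-seq in myotubes transfected with siDRR, siSmc3 or Control, and ChIRP-seq of the DRR RNA in myotubes with probe pool 1 or pool 2. For the myotube and myoblast SMC3 libraries the labels give no transfection, so the siDRR SMC3 lists have no list labelled as a control transfection beside them. No list gives the level of DRR or Smc3 after knockdown. Nothing in the labels says that replicates came from different cultures, and the p-values then measure only a spread between libraries that may be technical.

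Cohesin is a ring-shaped protein complex built on the ATPase subunits SMC1A and SMC3; it extrudes chromatin loops, often halts where CTCF is bound, and also lies at active enhancers and promoters. DRR is the distal regulatory region upstream of Myod1, the gene of a master regulator of the muscle lineage, and the RNA transcribed from it is an enhancer RNA. ChIRP-seq pulls down an RNA with tiled biotinylated probes and sequences the chromatin that comes with it, while ATAC-seq marks accessible chromatin through transposase insertion. The question behind the knockdowns, as the title of the study states it, was whether this RNA brings cohesin to sites away from its own locus. Coordinates are of build mm9, and no gene is assigned to a region because no annotation of that build was used.

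Gained regions were mostly weak calls. Within each list a peak was given a rank percentile by its deposited score, with 100 the best, and a region took that of its best peak. The median rank percentile of the gained regions was 26.0 in myotube replicate 1 and 30.3 in replicate 2, against 55.8 and 73.8 for the constant regions in the same lists. Other regions with fewer calls were as weak: those of both myotube lists and 1 myoblast list stood at 24.9 and 36.7, and lost regions at 30.5 and 29.5 in the myoblast lists. Of the 336, 27 stood in the upper part (above 50) of both myotube lists and 79 at or below 25 in both. The ranks in the 2 myotube lists were also less alike than for constant regions: across regions, which are not replicates, Pearson's r was 0.28 and Spearman's rho 0.24 for the gained regions, against 0.59 and 0.63 for the constant ones and 0.31 and 0.28 for those with 1 myoblast call. Widths ran from 690 to 9578 bp with a median of 1361 bp. At 3000 bp or wider were 29 regions (8.63%), against 5.88% of constant regions and 16.1% of those with 1 myoblast call.

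The limit between gained and not gained was narrow. SMC3 lists began at a score of 50, and in 129 of the 336 regions the lesser of the 2 myotube scores was no higher than 60, while 50 regions scored 100 or more in both. The member closest to the limit, chr15:33975111-33978361, had a rank percentile of 0.223 in myotube replicate 1 and 42.6 in replicate 2. Next came chr1:179485193-179486916 at 0.375 and 46.4 and chr2:60279677-60280605 at 0.488 and 22.1. Just outside lay regions of both myotube lists that 1 myoblast list called at its lowest scores: chr13:34220464-34224242 at a myoblast score of 50.06, chr5:36698838-36700207 at 50.07 and chr19:32181677-32183372 at 50.14. In all, 484 regions had both myotube calls and 1 myoblast call, and 77 of those myoblast calls scored no higher than 60.

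The number and identity of gained regions depended on list length, which was 15056 and 26765 peaks in myotubes, against 30955 and 33154 in myoblasts. With all 4 lists cut to 15056 peaks, best scores first, 788 regions were gained, and 97 of the 336 met one of these. Leaving out 1 library gave 544 regions without myoblast replicate 1, 612 without myoblast replicate 2, 3629 without myotube replicate 1 and 847 without myotube replicate 2. Among regions called in exactly 2 of the 4 SMC3 lists, the 336 gained regions were fewer than the 718 of myotube replicate 2 with myoblast replicate 1 and the 2245 of myotube replicate 2 with myoblast replicate 2. They were more than the 120 of myotube replicate 1 with myoblast replicate 1 and the 79 of myotube replicate 1 with myoblast replicate 2. The depth of each library is unknown, since the lists give no read counts, and the 95% intervals below are exact Clopper-Pearson intervals that cover counting error only.

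**Figure D1:**
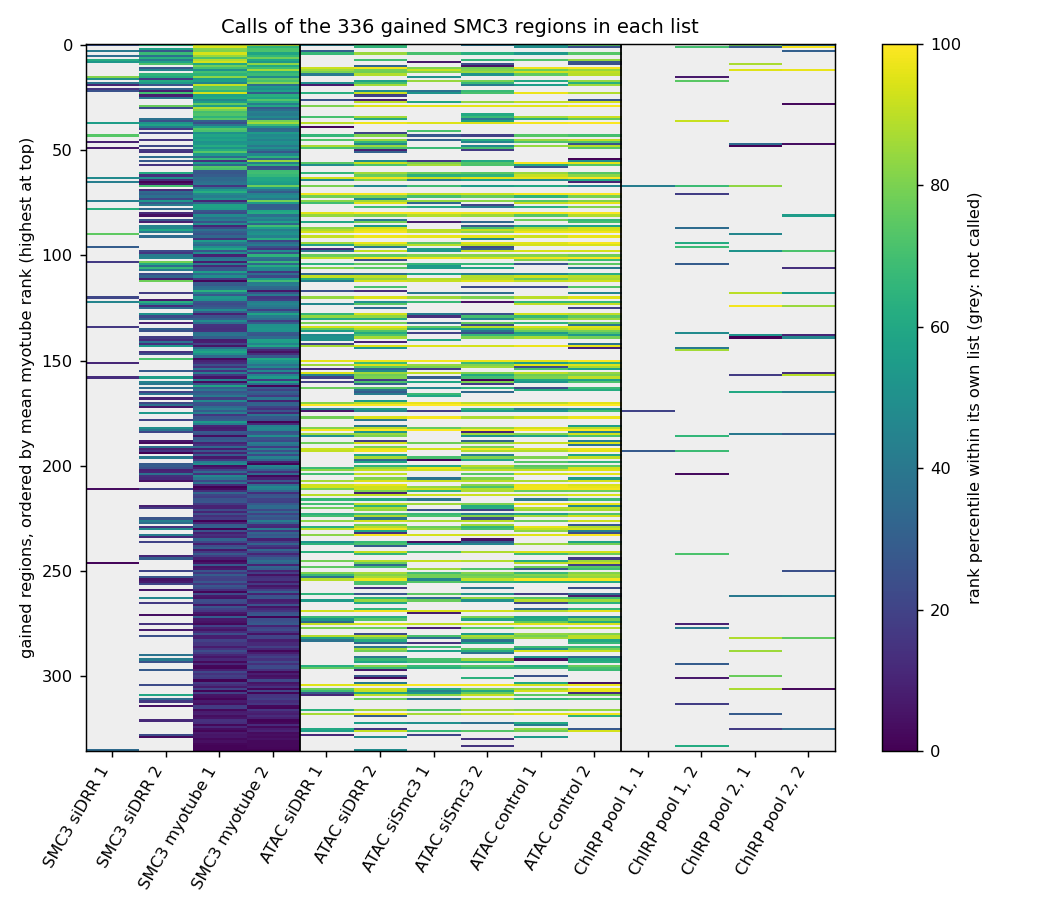
Rank percentile of each of the 336 gained regions (rows, highest mean myotube rank at the top) in each list (columns), with grey where the list did not call the region. SMC3 calls after siDRR replicate 1 are sparse at 30 of 336 and thin out toward the foot of the plot, whereas ATAC calls are spread over the whole range of SMC3 rank and ChIRP calls are few in every list.

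The strongest gained region, chr6:31024807-31027869, stood at 24.7 and 63.1 in the siDRR SMC3 lists, against 89.2 and 89.1 in the myotube lists. It was accessible in both siDRR and both control ATAC lists and in siSmc3 replicate 2, and both pool 2 ChIRP lists had a summit in it. The second, chr1:136185772-136191545, had no SMC3 call in either siDRR list, against 94.5 and 64.9 in the myotube lists. Of the 10 regions with the highest mean myotube rank, 5 were called in both siDRR lists, 4 in 1 list and 1 in neither. Accessibility varied among them, with 4 in both control ATAC lists and 4 in neither.

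Several of the strongest regions had SMC3 calls without accessible chromatin. Region chr6:24518622-24519825, at 36.6 in each siDRR SMC3 list, against 84.2 and 66.7 in the myotube lists, was called in none of the 6 ATAC lists. The same was true of chr7:16958743-16959825, at 63.1 in siDRR replicate 2, against 72.2 and 78.1 in the myotube lists. In contrast, chr3:21462128-21465527, at 93.8 and 58.2 in the myotube lists, was accessible in all 6 ATAC lists at rank percentiles of 54.0 to 85.0. Region chr16:24231040-24233101 kept a call in both siDRR SMC3 lists, at 61.4 and 41.7, against 87.9 and 60.4 in the myotube lists.

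The 5 widest gained regions were accessible in 3 to 6 of the 6 ATAC lists. The widest, chr11:120090864-120100441, spanned 9578 bp and was called at 9.20 and 65.0 in the myotube SMC3 lists and at 76.1 to 81.7 in the 6 ATAC lists. Second in width was chr1:73012025-73018335 with 6311 bp, called at 42.6 and 52.8 in the siDRR SMC3 lists, against 10.5 and 79.0 in the myotube lists. Both ranked far higher in myotube replicate 2 than in replicate 1, as did chr11:102177100-102182743 with 5644 bp, at 84.1 in replicate 2 and 14.6 in replicate 1. Another wide region, chr9:41387189-41392687, spanned 5499 bp and lay 272 bp from a region called in myoblasts.

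After knockdown of DRR, 175 of the gained regions (52.1%) had an SMC3 call in at least 1 list. The siDRR replicate 1 list called 30 of 336 (8.93%, 95% interval 6.11 to 12.5) and the longer replicate 2 list called 165 (49.1%, 43.6 to 54.6). Both lists called 20 regions (5.95%), 1 list called 155 (46.1%) and neither called 161 (47.9%, 42.5 to 53.4). Over all 13837 regions of both myotube lists, both siDRR lists called 51.6% and neither called 6.45%. The 2 siDRR libraries differ in list length, at 8384 and 23196 peaks, and 145 of the 155 single calls came from replicate 2 alone. Without siDRR replicate 2 the share with no call was 91.1%. With all 6 SMC3 lists cut to 8384 peaks, 616 regions are gained and 11 of the 336 recur. The share of gained regions with no call was then 23.2%, against 5.67% of all regions of both myotube lists at that length.

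Among gained regions, a siDRR call went with a high rank in the myotube lists. The median mean rank percentile was 61.6 for the 20 regions called in both siDRR lists, 32.6 for those called in 1 and 22.8 for those called in neither. Median widths of these groups were 1650.5, 1416 and 1271 bp. At matched myotube rank the gained regions still lacked siDRR calls more often than constant regions. In the bin of mean rank percentile from 0 to 20, 71.1% of gained regions (61.0 to 79.9) and 41.4% of constant regions were called in neither siDRR list. The shares were 43.8% and 12.9% from 20 to 40, and 34.4% and 2.98% from 40 to 60. From 60 to 80, 4 of 24 gained regions (16.7%, 4.74 to 37.4) lacked a call, against 0.293% of constant regions. Constant regions were chosen through calls in 2 further lists, which gained regions by rule do not have, so this contrast holds the rule itself and no test was made. Regions of both myotube lists and 1 myoblast list lay between gained and constant regions in each of these bins. They stood at 58.2%, 36.3%, 17.4% and 10.0%, and their intervals overlapped those of the gained regions.

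Regions called in exactly 2 of the 4 SMC3 lists are as often called by rule as the gained ones, and beside them the gained regions did not stand out for a lack of siDRR calls. The siDRR libraries are of myotubes, however, and by rule only the gained regions hold both myotube calls. This comparison thus also holds the rule itself, and no test was made. Neither siDRR list called 47.9% of gained regions, against 48.5% of the 2245 regions of myotube replicate 2 with myoblast replicate 2, 61.6% of those of myotube replicate 2 with myoblast replicate 1, 75.8% and 77.2% of those of myotube replicate 1 with a myoblast list, and 82.5% of lost regions. Calls in siDRR replicate 1 were the ones where gained regions led these sets: 8.93%, against 1.34% to 2.65% in the other 5. In siDRR replicate 2 the share of 49.1% lay just below the 51.0% of myotube replicate 2 with myoblast replicate 2. With 6 lists of equal length the share with no call was 23.2% for gained regions (19.9 to 26.8) and 22.7% to 47.3% for the other 5 sets.

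**Figure D2:**
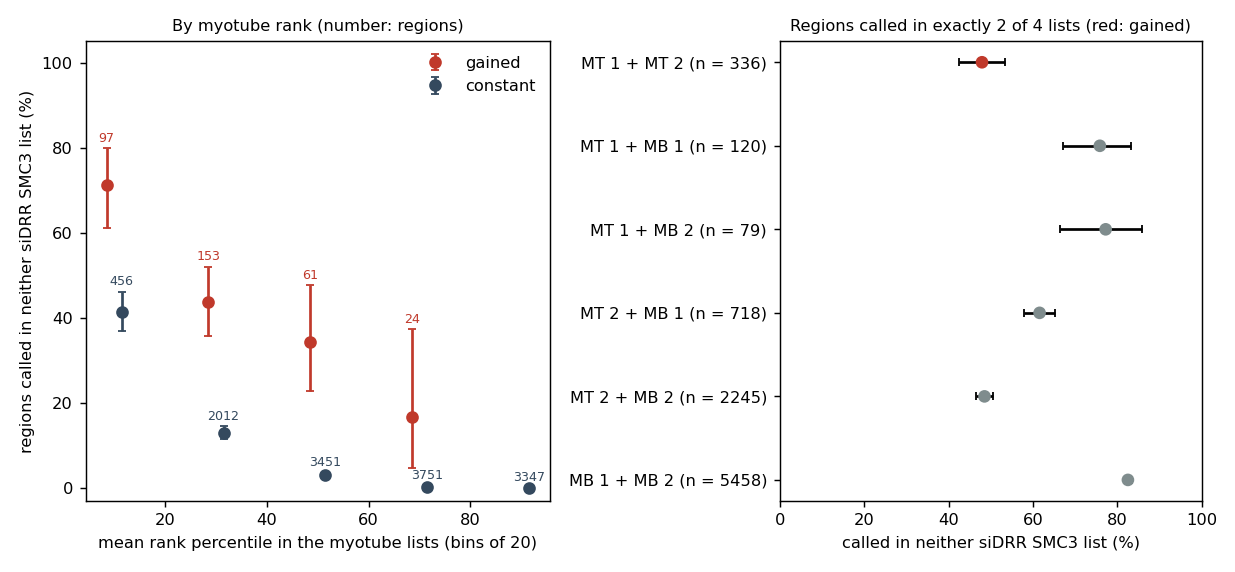
Share of regions called in neither siDRR SMC3 list, with exact 95% intervals. Left, by mean rank percentile in the myotube lists, gained regions lie above constant regions in each of the 4 bins with 5 or more gained regions. Right, regions called in exactly 2 of 4 SMC3 lists (MT, myotube; MB, myoblast) show the gained regions at 47.9%, at the low end of the 6 sets together with the 48.5% of MT 2 + MB 2.

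Of the gained regions with no siDRR call, the 5 of highest myotube rank differed in accessibility. After chr1:136185772-136191545 came chr1:187577900-187579235 at 78.5 and 60.9 in the myotube lists, which was called in siDRR and siSmc3 replicate 2 ATAC lists and in neither control list. Region chr1:158932591-158935654, at 69.4 and 63.8, was accessible in all 6 ATAC lists at 78.2 to 92.4. Region chr2:180093324-180094629, at 73.6 and 53.0, had no ATAC or ChIRP call at all and lay 4551 bp from a constant region. The last, chr1:94757117-94761470, at 46.2 and 73.3, was accessible in both siDRR lists and in control replicate 2. All but the chromosome 2 region lay on chromosome 1, which held 32 of the 336 gained regions (9.52%) and 7.34% of all regions of both myotube lists.

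Accessible chromatin was found at more than 1 in 3 gained regions in each of the 6 ATAC lists. The siDRR lists called 39.3% and 61.6% of them, the siSmc3 lists 39.6% and 52.4%, and the control lists 47.9% and 57.1%. Of the constant regions, the siDRR lists called 35.1% and 64.3%, the siSmc3 lists 30.7% and 61.9%, and the control lists 28.1% and 54.6%. Both control lists called 156 gained regions (46.4%, 41.0 to 51.9), against 25.3% of constant regions, 28.3% of lost regions, 26.4% of all regions of both myotube lists and 38.8% of all merged regions. For regions of both myotube lists and 1 myoblast list the share was 41.3% (36.9 to 45.9), which overlaps the interval of gained regions. No ATAC list called 97 gained regions (28.9%), against 20.1% of constant and 36.8% of lost regions. Where accessible, gained regions ranked high, at median percentiles of 80.5 and 79.1 in the control lists, against 56.9 and 53.0 for constant regions, 68.0 and 76.8 for lost regions and 72.9 and 73.9 for all SMC3 regions. The regions of both myotube lists and 1 myoblast list were close to them, at 79.8 and 79.5.

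Width moved with this share. The gained regions accessible in both control lists had a median width of 1852.5 bp, those accessible in neither 1088 bp. In the class over 1000 and up to 1500 bp, 25.5% of gained and 13.1% of constant regions were accessible in both control lists. Over 1500 and up to 2000 bp the shares were 79.7% and 36.1%, and over 2000 and up to 3000 bp 84.3% and 55.5%. At widths above 3000 bp they were 86.2% and 85.2%. Lost regions stood at 19.6%, 60.1%, 72.2% and 81.3% in the same classes, in order of width. Rank in the SMC3 lists did not order accessibility in the same way: from 0 to 20, 20 to 40, 40 to 60 and 60 to 80 of mean myotube rank, 43.3%, 51.6%, 39.3% and 41.7% of gained regions were accessible in both control lists. Accessible peaks sat near the centre of gained regions, with a median distance of 135 bp and 128 bp between the midpoints in the 2 control lists. Across sets called in exactly 2 SMC3 lists the share accessible in both controls ran from 16.7% to 84.9%, the highest being myotube replicate 2 with myoblast replicate 2, so 46.4% is inside the range of such sets.

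**Figure D3:**
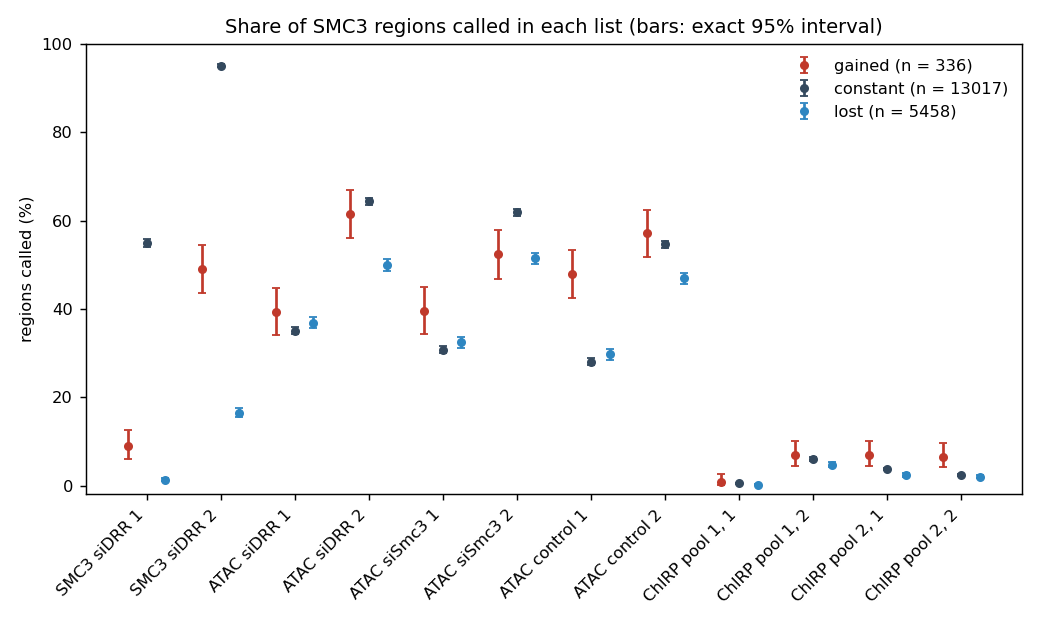
Percent of gained, constant and lost SMC3 regions called in each siDRR SMC3, ATAC and ChIRP list, with exact 95% intervals over regions. Gained regions lie below constant regions in both siDRR SMC3 lists and above them in control ATAC replicate 1 (47.9% and 28.1%), while the 3 sets lie closer together in the siDRR and siSmc3 ATAC lists than in that list.

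A smaller share of gained regions was accessible after siSmc3 than in control myotubes in each replicate, a difference that did not pass the exact permutation test. The siSmc3 lists called 46.0% ± 9.05 of gained regions and the control lists 52.5% ± 6.52 (SD, n = 2 each). The difference was -6.55 percentage points, with -8.33 in replicate 1 and -4.76 in replicate 2 (p = 0.667, two-sided exact permutation test; adjusted p = 1 over the 2 knockdowns). For siDRR the lists called 50.4% ± 15.8 and the control lists 52.5% ± 6.52 (SD, n = 2 each). That difference was -2.08 points, at -8.63 in replicate 1 and 4.46 in replicate 2 (exact permutation p = 1), so without replicate 1 its direction turned. The smallest p this design allows is 0.333.

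Constant regions gave positive differences in the same libraries, opposite to the gained regions in both replicates with siSmc3 and in replicate 1 with siDRR. Their called share differed from control by 8.35 points with siDRR and 4.92 points with siSmc3, and each of the replicate numbers gave a positive value. The difference of gained regions minus that of constant regions was -10.4 points with siDRR (-15.6 and -5.23 in the replicates) and -11.5 points with siSmc3 (-11.0 and -12.0). Permuting libraries gave an exact p of 0.667 for each of these contrasts. Both knockdowns share the same 2 control libraries. Among these 6 lists the control replicate 1 list was the shortest, at 58138 peaks, against 69841 to 103056 in the others; with all 6 cut to equal length the siSmc3 difference was -10.6 points in gained and 0.71 points in constant regions, and the siDRR difference -5.06 and 6.69.

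Most accessible gained regions were accessible after knockdown as well. Of the 156 in both control lists, 116 (74.4%) were in both siDRR lists and 106 (67.9%) in both siSmc3 lists, and 89 (57.1%) were in all 6 ATAC lists. These shares were below those of all 16532 SMC3 regions accessible in both controls, of which 14271 (86.3%) were in both siDRR lists, 13232 in both siSmc3 lists and 12295 (74.4%) in all 6, and for the constant regions they were 78.9%, 69.5% and 61.9%. In neither siDRR list was 1 of the 156, against 1.30% of all SMC3 regions accessible in both controls. That region, chr10:76104457-76107300, was called after siSmc3 at ATAC ranks of 85.5 and 72.5, against 28.6 and 69.5 in the control lists. New accessibility was rare as well: of 139 gained regions in neither control list, 1 was called in both siDRR lists and 3 in both siSmc3 lists, where 3.72% of all such SMC3 regions were called in each case.

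Absence from both siSmc3 lists was more frequent. It held for 16 of the 156 (10.3%, 5.98 to 16.1), against 3.31% of constant regions, 0.777% of lost regions and 2.21% of all SMC3 regions accessible in both controls. Regions of both myotube lists and 1 myoblast list stood at 7 of 200 (3.5%, 1.42 to 7.08). That interval overlaps the one of gained regions. Between control ATAC ranks of 50 and 80 the counts were 10 of 59 gained regions (16.9%, 8.44 to 29.0), against 1.43% of constant regions and 2.13% of all regions. Up to rank 50 they were 4 of 10, against 8.92% of constant regions, and above rank 80 they were 2 of 87, against 0.109%. The ATAC ranks of the 16 in the control lists had medians of 74.8 and 65.0. Of these 16, the siDRR ATAC lists called 4 in replicate 1 and 15 in replicate 2. Both siDRR ATAC lists called 3 of the 16, against 116 of the 156 (74.4%). Neither siDRR SMC3 list called 12 of the 16, against 42.9% of the 156, which include them. The 16 ranked lower in the myotube SMC3 lists, at medians of 22.2 and 19.4, against 26.0 and 30.3 for all gained regions. Among all gained regions, siDRR calls were missing from 71.1% at mean myotube ranks from 0 to 20 and 43.8% from 20 to 40. Whether rank accounts for the 12 was not tested. Within replicate 1 alone, 31.1% of gained regions accessible in the control list were missing after siSmc3 (24.0 to 38.8), against 34.5% of constant, 22.1% of lost and 22.0% of all SMC3 regions. Within replicate 2 alone the shares were 18.8% of gained, against 14.8% of constant, 8.59% of lost and 9.43% of all regions. Gained regions thus lay above the lost and all regions in each replicate, and above the constant regions in replicate 2 only.

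Named by myotube rank, the first of the 16 was again chr1:136185772-136191545, at 49.4 and 25.2 in the control ATAC lists. Region chr18:5833541-5836431 was called in siDRR replicate 2 at 40.2, against 77.8 and 66.7 in the control lists. Region chr11:88101806-88103335 stood at 79.8 and 68.3 in the control lists and lay 1455 bp from a constant SMC3 region. Of the 5, chr3:116695610-116696858 had the highest control ranks and was called in both siDRR ATAC lists at 46.7 and 73.2, against 90.2 and 90.7 in the control lists. The last was chr10:21351984-21353735, at 37.3 in siDRR replicate 2, against 61.5 and 61.8 in the control lists.

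**Figure D4:**
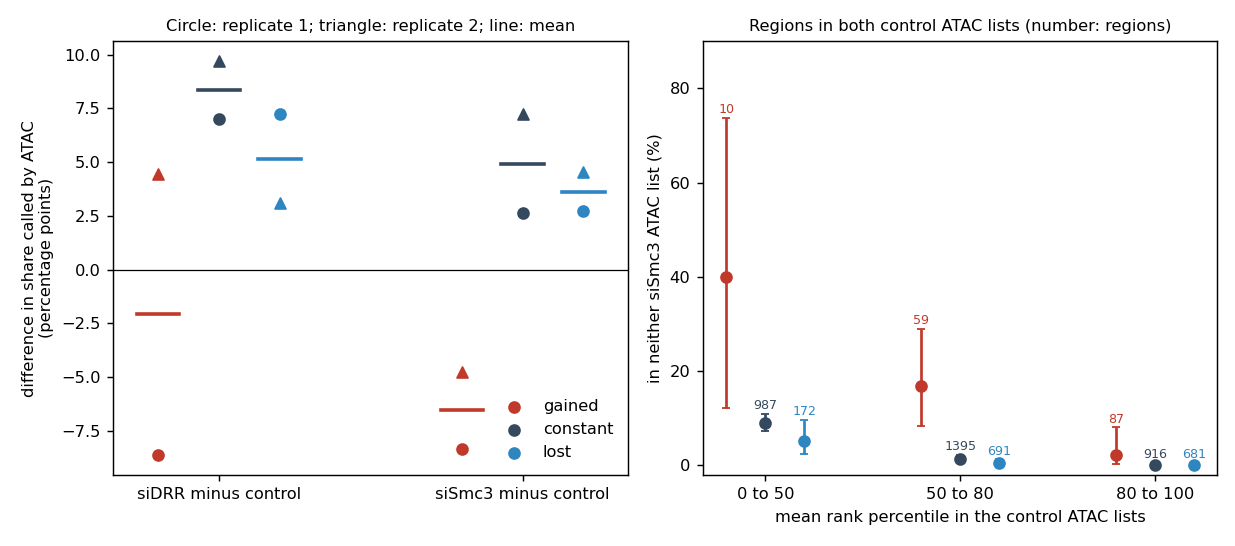
Left, knockdown minus control difference in the percent of regions called by ATAC, per replicate number and as a mean. Right, percent of regions accessible in both control lists that were in neither siSmc3 list, by mean control rank percentile, with exact 95% intervals; gained regions stand at 4 of 10, 16.9% and 2.30%, above the constant and lost sets in each bin.

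DRR ChIRP summits, each widened by 250 bp on both sides, met few gained regions. The pool 1 lists met 3 (0.893%) and 23 (6.85%) of them, and the pool 2 lists 23 (6.85%) and 22 (6.55%). For constant regions the shares were 0.507% and 5.97% with pool 1, and 3.74% and 2.40% with pool 2. Any ChIRP list met 51 gained regions (15.2%, 11.5 to 19.5), against 10.1% of constant regions, 7.49% of lost regions and 9.31% of all SMC3 regions. For regions of both myotube lists and 1 myoblast list it was 12.0% (9.23 to 15.2), which overlaps the interval of gained regions. With the replicate 1 lists alone the share was 7.44%. No ChIRP control list was analysed here, so nothing separates these summits from chromatin that any probe would pull down.

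Pool 2 summits were denser in gained than in constant regions in both lists. Both pool 2 lists met 16 gained regions (4.76%, 2.75 to 7.62), against 1.71% of constant regions, 1.28% of lost regions and 1.75% of all SMC3 regions. Regions of both myotube lists and 1 myoblast list stood at 3.31% (1.90 to 5.31), an interval that overlaps that of the gained regions. Per megabase of region, gained regions held 36.6 and 34.9 summits of the pool 2 lists, against 18.1 and 11.6 in constant regions, while the pool 1 lists gave 5.23 and 33.1 in gained regions, against 2.42 and 29.6 in constant regions. The 5.23 rests on 3 summits. Accessibility moved with the ChIRP share: any list met 19.2% of gained regions accessible in both controls and 10.1% of those accessible in neither, against 14.2% and 8.08% of constant regions. In 4 of 5 width classes both pool 2 lists met a larger share of gained than of constant regions, from 2.08% and 0.702% up to 1000 bp to 13.8% and 5.10% above 3000 bp. Over 2000 and up to 3000 bp the shares were 1.96% and 2.62%. These classes held 1 to 8 such gained regions each.

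The share of gained regions with no SMC3 call after siDRR was close whether or not a ChIRP list met them, and its intervals overlapped. Of the 51 gained regions met by any ChIRP list, 26 (51.0%, 36.6 to 65.2) were called in neither siDRR SMC3 list, against 135 of the 285 (47.4%, 41.5 to 53.3) met by none. Of the 16 met by both pool 2 lists, 9 had no siDRR call. Named after their values were seen, chr18:32535972-32541015 had pool 2 ranks of 95.1 and 96.7, the highest mean of the 16, and was called in all 6 ATAC lists. Region chr8:75873830-75875119 had pool 2 ranks of 98.4 and 84.9, no ATAC call and a constant SMC3 region 675 bp away.

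A single gained region, chr1:136185772-136191545, lay in a ChIRP region of both probe pools (0.298% of gained regions, against 0.183% of all SMC3 regions). Its summits were at base 136186925 in pool 1 replicate 2, at 136187300 and 136187974 in pool 2 replicate 1, and at 136187090 in pool 2 replicate 2, where it ranked at 98.8. All of these lie on the lower-numbered side of the region's midpoint, as does the stronger of the 2 peaks of myotube replicate 2, from 136186070 to 136188200. Its control ATAC peaks were there as well, from 136185963 to 136186695 and from 136186915 to 136187953 in replicate 1 and from 136186089 to 136186576 in replicate 2. The peak from 136186915 held the summits at 136186925, 136187090 and 136187300. With summits not widened, or without the replicate 2 ChIRP lists, no gained region met a merged ChIRP region of both pools. Counting any list of each pool, at whatever place in the region, 2 gained regions qualified (0.595%, against 0.319% of all SMC3 regions). The other, named after its values were seen, was chr8:86732461-86737463, met by both pool 1 lists and by pool 2 replicate 1.

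This region opened a run of 3 gained regions that ended at base 136219976. The others were chr1:136216858-136218408, at 6.13 and 19.2 in the myotube lists, and chr1:136218755-136219976, at 58.6 and 4.46. Between them lay chr1:136198828-136199689, called in myotube replicate 2 and no other SMC3 list. Of these 4 regions without a myoblast call, 3 were accessible in both control ATAC lists and none was called in either siSmc3 list. A siDRR SMC3 call was found for 1 of the 4, chr1:136218755-136219976 at 14.2 in replicate 2. The constant regions on either side, chr1:136139939-136143817 and chr1:136227674-136230324, were called in siDRR SMC3 replicate 2 at 34.0 and 65.9 and were accessible in all 6 ATAC lists.

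Runs like this were few. Joined over gaps of up to 100000 bp, 51 of the 336 gained regions formed 24 runs, of which 3 held 3 regions. In the run from 37679160 to 37722078 on chromosome 13, 1 of the 3 gained regions had a siDRR SMC3 call, 2 were accessible in both controls, and 6 of the neighbouring regions were called in 1 myotube list only. In the run from 90270980 to 90354763 on chromosome 8, no gained region had a siDRR SMC3 call or was accessible in both controls. The closest pair lay 33 bp apart on chromosome X (chrX:163240639-163242495 and chrX:163242529-163244363), and each was called in 1 siDRR list and in both control ATAC lists. Further close pairs were 346 bp apart on chromosome 1, in the run above, 6205 bp on chromosome 5, 7206 bp on chromosome 13 and 8208 bp on chromosome 6.

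Gained regions were not set apart from the regions of myoblasts by large distances, though their direct neighbours more often lacked a myoblast call. The median distance to the nearest constant region was 43203 bp, with 54 of 336 within 10 kb and 261 within 100 kb, against 43656.5 bp from lost to constant regions and 31769 bp between constant regions. To the nearest region with any myoblast call the median was 13157.5 bp for gained regions, against 10541 bp for lost and 9938 bp for constant regions, and 22 gained regions had one within 1 kb. Between gained regions the median was 1166931 bp. Of the 672 neighbours that flanked the gained regions, 164 (24.4%) were constant, against 30.6% of all SMC3 regions that are constant, and 148 (22.0%) were called in 1 myotube list only, against 8.89% of all SMC3 regions. Another 26 (3.87%) were gained, against 0.789%. Per chromosome, gained regions made up 1.41% (chromosome 14) to 3.64% (chromosome 13) of the regions of both myotube lists.

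**Figure D5:**
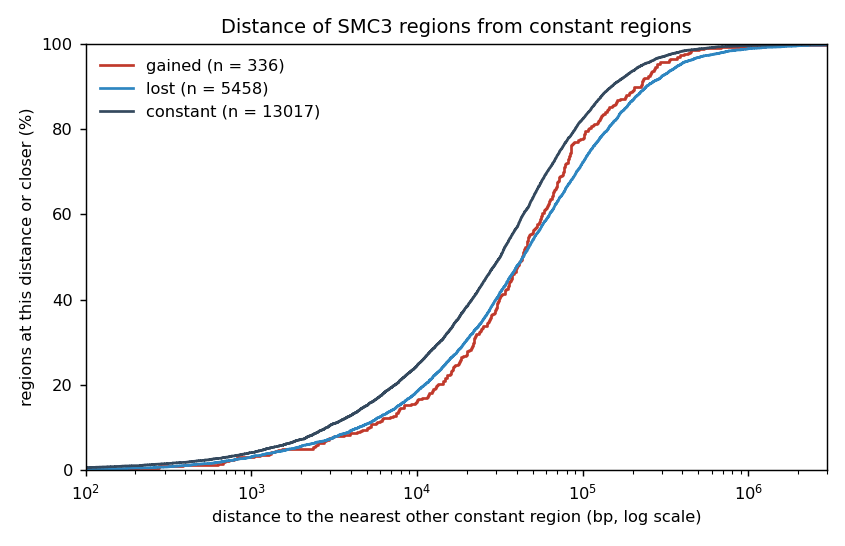
Cumulative percent of gained, lost and constant regions by distance to the nearest other constant region, in bp on a log scale. The gained curve passes 50% at 43203 bp, beside the lost curve at 43656.5 bp, and both lie to the right of the constant curve at 31769 bp.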

How the data were processed

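Peak lists of 16 of the 26 samples were used, 2 libraries in each of 8 groups; the other samples were not analysed here. The authors' deposited lists hold 5 columns without a header, the last being a score per peak from the authors' peak caller, whose scale is not given in the sources used here. Per the submitters' processing notes the build is mm9, and MACS2, MACS 1.4.2, Bowtie2 2.2.4, Bowtie 1.1.1, cutadapt 1.12, CASAVA 1.8.2 and bcl2fastq 2.17.1 are named, with no role stated. No peak-calling control, threshold or ATAC read shift is given in the sources used here. Peaks were called per library, SMC3 and ATAC as intervals and ChIRP as 1-bp summits. Scores served only to rank or filter peaks within a list. More peaks may reflect more reads or more sites.

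Starts were made 1-based, and peaks off the 19 autosomes and X were left out. Merging and calling used an overlap of 1 bp (Python 3.11.15, numpy 2.4.6, pandas 2.3.3, scipy 1.17.1) and were tested on simulated lists. At most 1.41% of intervals recurred exactly between lists. Regions were named by rank in the myotube lists (the 10 highest, the 5 highest with and without siDRR calls, the 5 highest of those losing accessibility), by ChIRP regions of both pools, by width, by closeness of pairs and by nearness to the score limit. Regions of both pool 2 lists are outside that rule. The regions, comparisons and lists were chosen with earlier results of these data known. Gene lists were not used, for want of an mm9 annotation.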

Additional observations from a re-analysis of the deposited data

Results flagged for a closer look

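The share of regions called by ATAC moved in opposite directions in gained and constant regions after siSmc3. It was -6.55 percentage points against control in gained regions, negative in both replicate numbers, and 4.92 points in constant regions, positive in both. Permuting the siSmc3 and control libraries gave an exact p of 0.667 for the contrast between the sets, where no p under 0.333 can be had from 2 libraries against 2. The list lengths move with it: the siSmc3 ATAC lists held 80897 and 103056 peaks and the control lists 58138 and 99548. With all lists cut to the shortest, a setting applied to the constant regions after seeing the data, the difference was -10.6 points in gained regions (-12.8 and -8.33 in the replicates). In constant regions it was then 0.71 points (-2.30 and 3.73), so the opposite direction no longer held in replicate 1.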

How the results depend on the processing

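Across 81 alternatives to 13 results, 54 values stayed inside the main interval, within 1.5 times the main count, or on the same side of 0. Keeping the better-scoring 50% of each list gave 162 gained regions, of which 55.6% were called in neither and 9.26% in both siDRR SMC3 lists. For the 336, it gave 29.8%, 26.2% and 40.2% accessible in both siDRR, siSmc3 and control ATAC lists, 17.8% of accessible regions missing after siSmc3, 7.44% met by any ChIRP list and 1.49% by both pool 2 lists. Lists of equal length gave 788 gained regions, and over 6 SMC3 lists 23.2% in neither and 30.8% in both siDRR lists. All regions of both myotube lists stood at 5.67% and 70.9% with those 6 lists. With summits not widened, 0% met a ChIRP region of both pools. Distance to any region with a myoblast call had a median of 13157.5 bp. For these settings the cause of each shift was not tested.

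Leaving out 1 library gave 544 to 3629 gained regions and 50.9% to 91.1% with no siDRR call. Leaving out 1 replicate number gave 39.3% to 61.6% accessible after siDRR, 39.6% to 52.4% after siSmc3 and 47.9% to 57.1% in controls. It also gave 18.8% to 31.1% missing after siSmc3, 7.44% to 13.1% with any ChIRP call and 0% to 0.298% with both pools. The siDRR minus control difference ran from -8.63 to 4.46 points and turned without replicate 1; that of siSmc3 ran from -8.33 to -4.76.

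Samples share only a replicate number, since the labels do not say what it marks. With the replicate number as a block, 340 regions were gained within both pairs, and the sign-flip p was 1 for siDRR and 0.5 for siSmc3, the smallest that 2 pairs allow. The count of 340 nearly repeats the main rule, with each pair merged on its own. It is therefore no independent check, though it is counted among the values that stayed. Deviations of same-numbered ATAC libraries correlated at 0.217 to 0.243 over all SMC3 regions. Leaving out the 19 gained regions within 1000 bp of a myoblast peak, an alternative chosen after seeing the data, left 47.6% with no siDRR call and 10.6% missing after siSmc3. Depth is unknown and limits every absence of a call.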
